A study of Mus musculus with 21 samples.

Results

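The Polycomb repressive complex genes were followed here as 10 members, Ezh1, Ezh2, Eed, Suz12, Jarid2, Rnf2, Ring1, Bmi1, Phc1 and Phc2, chosen by gene symbol as rows of an RNA-seq table of 37620 mouse genes. All 10 symbols were found, each in 1 row, and all 10 passed a filter of 0.1 FPKM on the mean (FPKM being fragments divided by transcript length in kilobases and by library depth), which 20795 genes passed. The series has 21 samples on the binding of PRDM9, the protein that places meiotic recombination hotspots, of which 12 are RNA-seq libraries, and only these were used here. The 12 libraries came from wild-type C57BL/6J mice at 12 days post-partum and are labelled as spermatocytes. The germ cells were enriched from testes by collagenase and trypsin digestion, with no sort on a marker stated, so cells of the testis wall and tubules could remain. In the titles, 3 libraries each share 1 of 4 sample numbers (186wt, 343wt, 444wt, 456wt), and the labels give no treatment, genotype or age that differs among them. They do not say whether a number stands for 1 animal or a pool.

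Polycomb proteins work in 2 main complexes that keep developmental genes silent. Polycomb repressive complex 2 (PRC2) places methyl groups on lysine 27 of histone H3, and Polycomb repressive complex 1 (PRC1) places ubiquitin on histone H2A and compacts chromatin. In the male germ line both complexes are known to take part in the silencing of somatic genes and in the change from mitotic to meiotic expression.

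In the germ-cell libraries all 10 members were transcribed at mid to high levels, from 20.3 ± 3.07 FPKM for Ring1 to 55.5 ± 9.95 FPKM for Jarid2 (SD, n = 4 sample numbers). Their median log2 range, the highest minus the lowest mean of log2(FPKM + 0.1) among the 4 numbers, was 0.28, against 0.55 for all genes tested and 0.33 for the 7507 genes of 10 to 100 FPKM. Within these ranges 444wt had the most Jarid2, Phc1, Eed and Ezh2 and the least Ring1, and 343wt had the least Jarid2 and Phc1, whether FPKM were taken as deposited or rescaled.

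Depth was estimated from the step that 1 fragment adds to FPKM and lay between 13.0 and 18.2 M fragments per library. At this depth 1 kb of a member's transcript drew 754 to 2220 fragments over the 3 libraries of the number with the fewest, a counting error of 2.12% to 3.64%. Over 1887 to 1975 genes with 1 annotated transcript, the variance among the 3 libraries of a number was 0.959 to 1.09 times the counting variance at the median, against 7.68 times among all 12 libraries. The mean of that ratio was higher, from 1.17 in 343wt to 1.73 in 186wt. The 3 libraries of a number thus differed, at the median gene, by about sampling noise, and were counted as 1 sample in every mean and SD (n = 4). For the members, the pooled spread within a number ran from 2.12% of the mean (Rnf2) to 7.57% (Ring1), which was not tested against counting error. The p-values below set the difference between numbers against the spread of these libraries, which at the median gene was close to sampling noise. They compare 4 preparations and say nothing about the spread between mice beyond them.

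The cell type named in the labels was compared with marker genes. The 15 measured meiotic prophase markers (such as Sycp3, Dmc1 and Spo11) were all above 0.1 FPKM and summed to 465 to 777 FPKM, while 7 spermatid markers summed to 3.37 to 5.28 FPKM. The 9 measured Sertoli cell markers, which include Clu, Amh and Sox9, summed to 2650 to 4700 FPKM, and the 7 markers of differentiating spermatogonia summed to 565 to 818 FPKM. Markers of meiotic cells, of spermatogonia and of the tubules' supporting cells were thus all present. In such mixed tissue a higher FPKM from more cells of a type and one from more RNA per cell cannot be told apart.

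The windows of sequence at the members' transcription starts were read from RefSeq (build GRCm38.p6), 250 bases before to 50 bases after the start, and all 10 members matched, with 13 windows. The following 6 are shown because they belong to the 3 members with the widest range between numbers (Jarid2, Ring1, Phc1), to the Ring1 paralog Rnf2, and to Ezh2 and Suz12. These last were the only members with an E2F-type motif, the letters TTTNNCGC on either strand, given in capitals.
Ezh2 (chr6:47594981-47595280, minus strand): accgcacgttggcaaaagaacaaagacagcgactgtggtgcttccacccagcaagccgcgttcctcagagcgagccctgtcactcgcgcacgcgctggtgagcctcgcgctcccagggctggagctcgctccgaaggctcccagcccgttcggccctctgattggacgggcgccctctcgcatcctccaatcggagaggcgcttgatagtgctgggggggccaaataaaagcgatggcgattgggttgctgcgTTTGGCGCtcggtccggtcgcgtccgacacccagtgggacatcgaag
Suz12 (chr11:79992856-79993155, plus strand): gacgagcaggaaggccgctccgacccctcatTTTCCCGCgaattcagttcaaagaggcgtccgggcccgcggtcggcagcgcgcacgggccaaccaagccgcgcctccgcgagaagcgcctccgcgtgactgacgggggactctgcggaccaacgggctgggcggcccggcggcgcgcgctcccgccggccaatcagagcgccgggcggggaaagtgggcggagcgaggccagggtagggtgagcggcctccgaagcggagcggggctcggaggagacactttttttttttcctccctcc
Jarid2 (chr13:44730524-44730823, plus strand): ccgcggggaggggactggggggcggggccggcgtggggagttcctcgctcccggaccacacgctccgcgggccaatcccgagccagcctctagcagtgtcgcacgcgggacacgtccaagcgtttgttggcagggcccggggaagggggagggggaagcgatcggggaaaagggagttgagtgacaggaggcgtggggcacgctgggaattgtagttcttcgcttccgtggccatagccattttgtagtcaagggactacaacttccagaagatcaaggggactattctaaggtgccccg
Phc1 (chr6:122340178-122340477, minus strand): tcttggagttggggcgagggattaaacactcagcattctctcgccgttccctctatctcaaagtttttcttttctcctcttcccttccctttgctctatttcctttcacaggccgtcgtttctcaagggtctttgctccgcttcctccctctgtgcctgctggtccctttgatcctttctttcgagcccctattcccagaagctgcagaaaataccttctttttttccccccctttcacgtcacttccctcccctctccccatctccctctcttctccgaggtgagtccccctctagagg
Ring1 (chr17:34024631-34024930, minus strand): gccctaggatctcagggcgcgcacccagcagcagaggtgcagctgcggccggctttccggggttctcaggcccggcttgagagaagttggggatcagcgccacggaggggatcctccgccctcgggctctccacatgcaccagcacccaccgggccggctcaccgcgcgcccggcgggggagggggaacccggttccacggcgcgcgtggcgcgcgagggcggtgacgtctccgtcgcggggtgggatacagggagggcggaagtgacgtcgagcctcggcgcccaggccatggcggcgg
Rnf2 (chr1:151500942-151501241, minus strand): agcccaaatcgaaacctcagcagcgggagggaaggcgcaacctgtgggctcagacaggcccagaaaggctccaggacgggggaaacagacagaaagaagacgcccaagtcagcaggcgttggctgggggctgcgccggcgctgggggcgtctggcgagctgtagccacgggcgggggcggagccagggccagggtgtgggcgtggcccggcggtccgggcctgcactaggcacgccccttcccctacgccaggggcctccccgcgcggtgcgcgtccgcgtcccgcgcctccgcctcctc

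The E2F-type letters were present in 5.17% of all 32851 windows of this length, and began 4 bases after the start in Ezh2 and 219 bases before it in Suz12. CpG dinucleotides numbered 31 in the Ezh2 window, 41 in Suz12, 37 in Ring1, 30 in Rnf2, 24 in Jarid2 and 9 in Phc1, against a median of 7 over all windows. Phc1, with 52.0% G and C, was the only one of the 6 close to that median, and 54.2% of all windows held fewer CpG. The letters CCAAT, counted on either strand, were in 37.4% of windows. They occurred 3 times in the Ezh2 window and once each in those of Suz12 and the printed window of Jarid2. These are matches of letters, which do not show binding.

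The order of the members by mean was Jarid2, Bmi1, Phc2, Suz12, Phc1, Eed, Rnf2, Ezh1, Ezh2 and Ring1. FPKM are divided by length, so levels were set side by side between genes. Other differences between genes were not corrected, such as the number of annotated transcripts, from 1 for Rnf2 to 17 for Jarid2 and Phc1. Jarid2, the PRC2 cofactor that helps bring the complex to its targets, was above Bmi1 in 4 of 4 numbers, but the ranges of the number means overlapped. Phc2 (47.2 ± 2.26 FPKM) lay above Suz12 (39.2 ± 1.62 FPKM) in every number with no overlap of the ranges, by 0.27 ± 0.05 on the log2 scale (SD, n = 4). Rnf2 (33.2 ± 2.69 FPKM) lay above Ezh1 (26.6 ± 2.03 FPKM) in the same way, by 0.32 ± 0.22. Every other pair of neighbours overlapped, Ezh2 and Ring1 among them, although Ezh2 was the higher in 4 of 4 numbers. The comparison of neighbours is a description without a test.

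**Figure D1:**
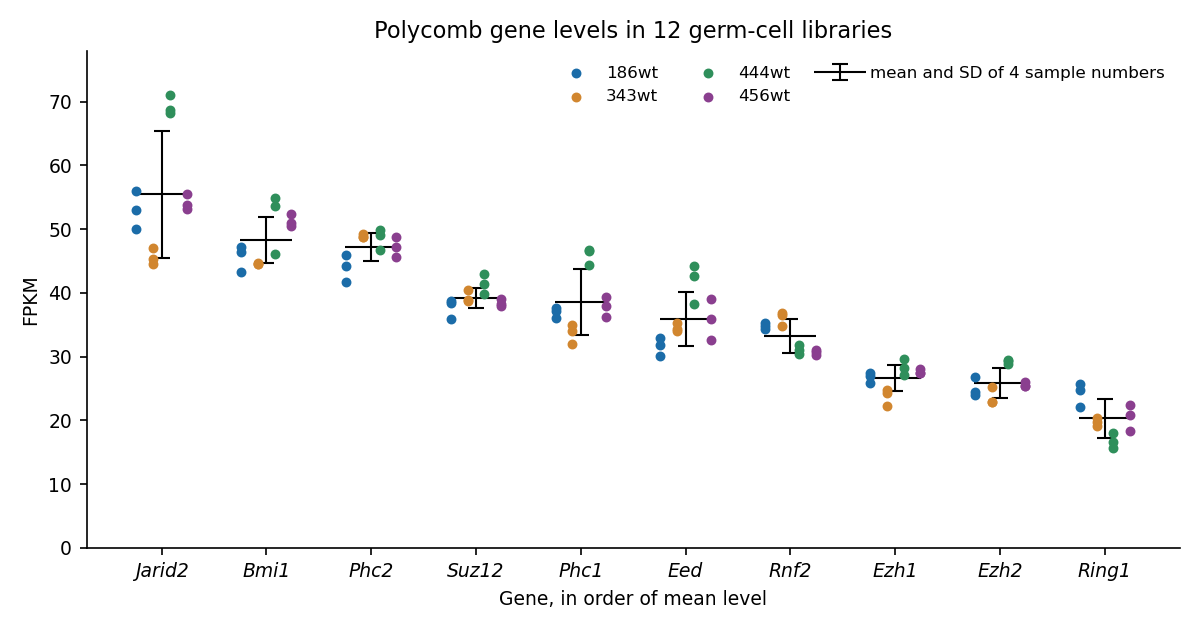
FPKM of the 10 Polycomb members in each of the 12 libraries (points, coloured by sample number), with the mean and SD of the 4 number means in black. Jarid2 was highest in the 3 libraries of 444wt, at 68.2 to 71.0 FPKM, and Ring1 lowest in the same number, at 15.6 to 18.0 FPKM.

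All 10 members but Ring1 were among the upper quartile of the genes that passed the filter, whose lower bound was 21.1 FPKM. The share of those genes with a lower mean ran from 74.1% for Ring1 to 92.0% for Jarid2. The coefficient of variation over the 4 numbers ran from 4.14% for Suz12 to 17.9% for Jarid2, and the median over genes that passed the filter was 18.6%.

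**Figure D2:**
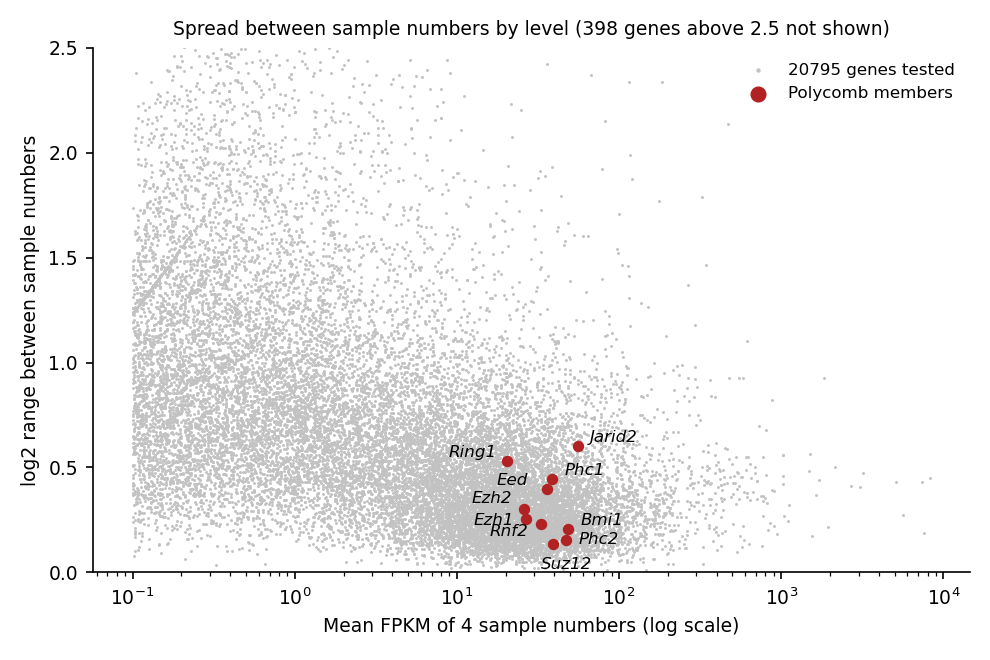
Log2 range between the 4 sample numbers against mean FPKM (log scale) for the 20795 genes tested (grey) and the 10 members (red). The members sit between 0.14 (Suz12) and 0.60 (Jarid2). Of the 10, Jarid2, Ring1, Phc1 and Eed lie above 0.33, the median of genes of 10 to 100 FPKM, and the other 6 below it.

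The first question put to the data was whether the members differed between sample numbers beyond the spread of libraries. In limma's F-test on log2(FPKM + 0.1), adjusted over all 20795 genes tested, 10 of 10 members passed an adjusted p of 0.05, where the background was 58.2% of all genes and 83.3% of genes of 10 to 100 FPKM. A call was thus common at this level of expression, and the members' count is not a result about Polycomb genes. The second question was in which number each member stood apart, by limma contrasts of each number with the mean of the other 3. These contrasts share libraries.

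Among the catalytic and core genes of PRC2, the methyltransferase genes Ezh1 and Ezh2 were nearly equal. Ezh2, the enzyme of dividing cells, had library FPKM of 24.0, 26.8 and 24.4 in 186wt, 22.8, 25.3 and 22.9 in 343wt, 29.4, 29.5 and 28.8 in 444wt, and 25.4, 26.0 and 25.3 in 456wt. All 3 libraries of 444wt lay above the other 9. The log2 difference of 444wt from the other numbers was +0.24 ± 0.04 (SE), with a limma adjusted p of 0.000444. Ezh1, the paralog that predominates in resting cells, had library FPKM of 25.9, 27.0 and 27.4 in 186wt, 24.2, 24.7 and 22.3 in 343wt, 29.6, 28.3 and 27.2 in 444wt, and 27.4, 28.1 and 27.4 in 456wt. All 3 libraries of 343wt lay below the other 9, with a log2 difference of -0.22 ± 0.04 (limma adjusted p = 0.000493).

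Eed, whose protein reads the methyl mark and stimulates the enzyme, was lowest in 186wt, at 32.9, 31.8 and 30.2 FPKM. In the other numbers its library FPKM were 34.3, 34.0 and 35.3 (343wt), 38.2, 42.6 and 44.3 (444wt), and 39.1, 35.9 and 32.7 (456wt). The libraries of 444wt and 456wt overlapped, since the highest of 456wt exceeded the lowest of 444wt. Relative to the other numbers Eed was higher in 444wt by 0.29 ± 0.05 on the log2 scale (limma adjusted p = 0.000939) and lower in 186wt, at -0.23 ± 0.05 (limma adjusted p = 0.00537).

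Suz12, the scaffold of PRC2, varied least of the members, with number means of 37.7, 39.3, 41.4 and 38.4 FPKM in 186wt, 343wt, 444wt and 456wt. Its libraries spanned 36.0 to 42.9 FPKM and the numbers overlapped. The F-test gave an adjusted p of 0.0299, which became 0.115 without library 2 of 444wt, 0.0803 without library 3 and 0.329 without 444wt as a whole. Of Suz12's exon bases, 178 also lie in Gm16706 on the other strand, and 2.6% of its 50-base words occur in that gene, so its value carries that uncertainty.

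Jarid2 had the widest range of all members. It had library FPKM of 53.0, 50.1 and 56.0 in 186wt, 45.4, 47.0 and 44.5 in 343wt, 71.0, 68.8 and 68.2 in 444wt, and 53.1, 53.7 and 55.6 in 456wt. The libraries of 444wt lay above all others and those of 343wt below all others, while 186wt and 456wt overlapped. The log2 difference was +0.45 ± 0.03 for 444wt (limma adjusted p = 4.75e-07) and -0.36 ± 0.03 for 343wt (limma adjusted p = 3.91e-06). Its log2 range was 0.60, or 1.52-fold. A smaller range was found for 54.8% of all genes tested and for 83.0% of the 7507 genes of 10 to 100 FPKM.

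The ubiquitin ligase genes of PRC1, Ring1 and Rnf2, were the 2 members that were lower in 444wt. Ring1 had library FPKM of 24.8, 25.7 and 22.0 in 186wt, 19.1, 19.7 and 20.5 in 343wt, 16.6, 15.6 and 18.0 in 444wt, and 22.4, 18.3 and 20.8 in 456wt. The 3 libraries of 444wt were the lowest of the 12, while the lowest library of 186wt lay under the highest of 456wt. The log2 difference was +0.35 ± 0.07 for 186wt (limma adjusted p = 0.00125) and -0.35 ± 0.07 for 444wt (limma adjusted p = 0.000991).

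Rnf2, which encodes the main ligase RING1B, had library FPKM of 35.3, 34.3 and 34.8 in 186wt, 34.8, 36.9 and 36.5 in 343wt, 31.8, 30.4 and 31.0 in 444wt, and 31.1, 30.2 and 30.7 in 456wt. The 6 libraries of 186wt and 343wt all lay above the 6 of 444wt and 456wt. The size was small, with log2 differences of +0.10, +0.17, -0.12 and -0.15 in 186wt, 343wt, 444wt and 456wt (SE 0.02 each), and Rnf2 was the only member called in all 4 contrasts.

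Bmi1, a ring-finger partner of the ligase that is also known as Pcgf4, had library FPKM of 47.1, 43.3 and 46.4 in 186wt, 44.5, 44.6 and 44.6 in 343wt, 54.9, 53.6 and 46.1 in 444wt, and 52.4, 50.6 and 50.9 in 456wt. Library 3 of 444wt stood with those of 186wt rather than with its own number. The call in 444wt, at +0.13 ± 0.05 (limma adjusted p = 0.0424), was lost in 9 of the 12 fits that left out 1 library, with an adjusted p of 0.234 without library 1 of 444wt. Of Bmi1's 50-base words 3.27% occur in Gm5946, the largest such share among the members.

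Phc1 and Phc2 encode polyhomeotic proteins, which join PRC1 complexes into larger assemblies. Phc1 had library FPKM of 37.1, 37.7 and 36.1 in 186wt, 32.0, 34.1 and 35.0 in 343wt, 46.8, 44.4 and 46.6 in 444wt, and 38.0, 39.4 and 36.2 in 456wt. The libraries of 444wt lay above all others and those of 343wt below all others. The log2 difference was +0.35 ± 0.03 for 444wt (limma adjusted p = 6.26e-06) and -0.25 ± 0.03 for 343wt (limma adjusted p = 0.000102). Phc2 had number means of 44.0, 48.9, 48.6 and 47.2 FPKM in 186wt, 343wt, 444wt and 456wt. It was lower in 186wt by a log2 difference of -0.13 ± 0.03 (limma adjusted p = 0.00516), and its F-test passed at 0.0142 but not without 186wt (adjusted p = 0.372) or without its library 2 (adjusted p = 0.0598).

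Counted over members, 7 of 10 were higher in 444wt (background 26.5% of genes tested) and 2 of 10, Rnf2 and Ring1, were lower (background 17.8%). In 343wt 5 of 10 were lower (background 25.6%) and 1 of 10 higher (background 14.5%). In 186wt 2 of 10 were higher (background 14.8%) and 2 of 10 lower (background 21.9%). In 456wt 0 of 10 were higher (background 22.9%) and 1 of 10, Rnf2, was lower (background 13.6%). With a filter of 1 FPKM, which 14348 genes passed, the backgrounds for higher and lower were 36.7% and 23.8% in 444wt. In 343wt they were 20.5% and 35.6%, in 186wt 21.3% and 31.1%, and in 456wt 30.7% and 19.5%. The members' counts in that fit were the same, except that 1 of 10 was higher in 456wt. Backgrounds for genes of 10 to 100 FPKM, where the members lie, were not taken for these contrasts. Some calls of the main fit changed when 1 library was left out. The call of Ezh1 in 444wt was lost without library 1 of that number (limma adjusted p = 0.0912) and that of Suz12 without library 2 (limma adjusted p = 0.0779). The call of Bmi1 in 343wt was lost without any 1 of the 3 libraries of 343wt (limma adjusted p from 0.0706 to 0.0721), with the log2 difference still at -0.15. The median gene was itself shifted in these contrasts, by -0.05, -0.10, +0.08 and +0.05 on the log2 scale in 186wt, 343wt, 444wt and 456wt. The medians of the members were -0.07, -0.11, +0.13 and -0.01.

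When the libraries were rescaled so that the median gene had the same level in each, the shifts of the median gene fell within -0.02 to +0.01 and the counts changed. The F-test then called 9 of 10 members, all but Bmi1 (background 56.1%). In 444wt 4 of 10 were higher, namely Ezh2, Eed, Jarid2 and Phc1 (background 18.7%), and Rnf2 and Ring1 were again the 2 of 10 that were lower (background 22.8%). In 343wt 3 of 10 were lower, namely Ezh1, Jarid2 and Phc1 (background 16.7%), and 3 of 10 higher, namely Suz12, Rnf2 and Phc2 (background 20.7%). In 186wt 2 of 10 were higher, Rnf2 and Ring1 (background 18.1%), and 2 of 10 lower, Eed and Phc2 (background 17.2%). In 456wt 0 of 10 were higher (background 17.4%) and 2 of 10 lower, Suz12 and Rnf2 (background 18.2%). The calls of Ezh1, Suz12 and Bmi1 in 444wt and of Ezh2 and Bmi1 in 343wt thus depended on the scaling.

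**Figure D3:**
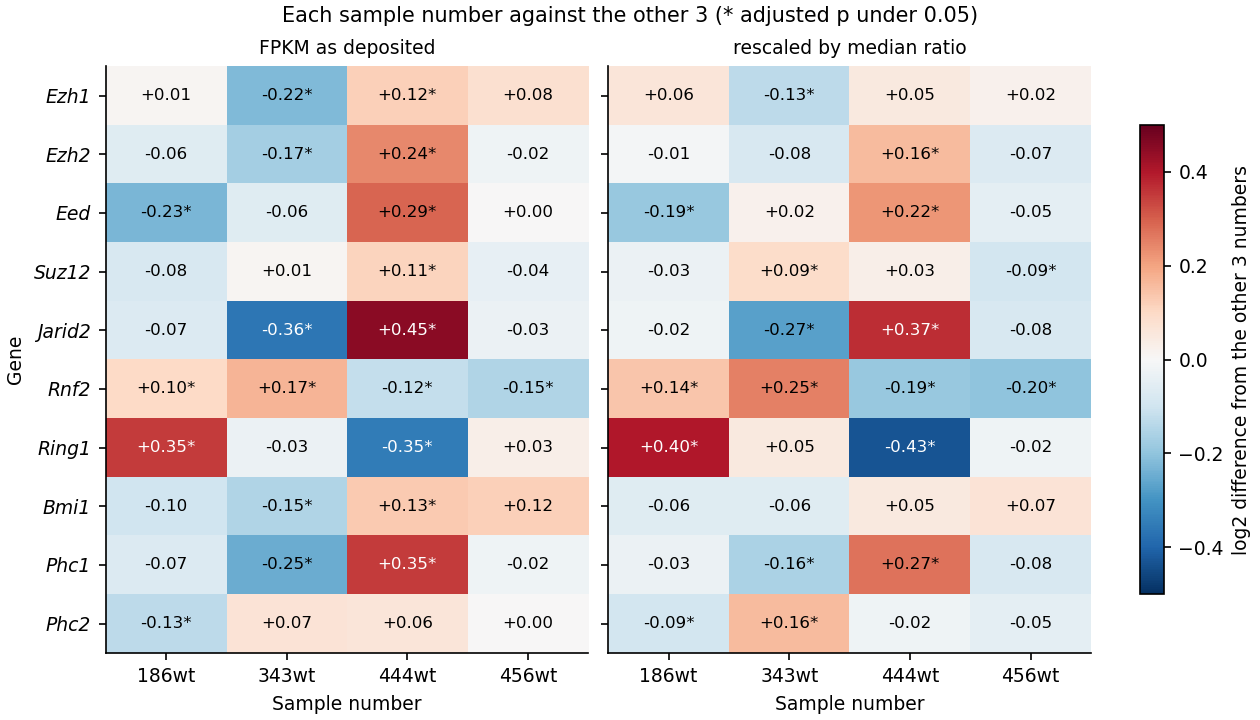
Log2 difference of each sample number from the mean of the other 3 for the 10 members, with FPKM as deposited (left) and after rescaling by the median ratio (right). Stars mark an adjusted p under 0.05 in limma. The blue Ring1 cell of 444wt (-0.35 and -0.43) and the red Jarid2 cell (+0.45 and +0.37) kept their sign in both panels.

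Cell markers also differed between the sample numbers. In 444wt the summed meiotic prophase markers were 0.52 higher than the mean of the other 3 numbers on the log2 scale, and the differentiating spermatogonia markers 0.40 higher, while Sertoli, Leydig and macrophage markers were lower (-0.62, -2.24 and -1.67). Of the 15 meiotic prophase markers 14 were highest in 444wt, as were 11 of 12 markers of cycling cells. In 343wt the meiotic markers were lower, at -0.47, and so were the peritubular myoid markers, at -1.62, while Sertoli, Leydig and macrophage markers were higher, at +0.48, +1.31 and +1.01. In 456wt the peritubular myoid and endothelial markers were higher, by 1.21 and 0.89. Sertoli markers were lower in 456wt (-0.49), as in 444wt. Undifferentiated spermatogonia and cycling cell markers were higher in 456wt (+0.24 and +0.19) and in 444wt (+0.28 and +0.35), while 0 of 10 members were higher in 456wt. In 186wt Sertoli markers were higher (+0.44). Undifferentiated and differentiating spermatogonia markers were lower there (-0.44 and -0.32), and meiotic prophase markers stood at -0.01. The 7 pachytene spermatocyte markers did not follow the meiotic prophase list, since they were lower in 444wt (-0.28) and higher in 456wt (+0.40), where 6 of the 7 were highest. The summed levels for 186wt, 343wt, 444wt and 456wt were 597, 465, 777 and 562 FPKM for meiotic prophase and 4630, 4700, 2650 and 2850 FPKM for Sertoli cells. No defining marker of these lists was at 0 in all libraries other than 1 of the 7 spermatid markers. The part of cell makeup in the members' differences was not tested.

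**Figure D4:**
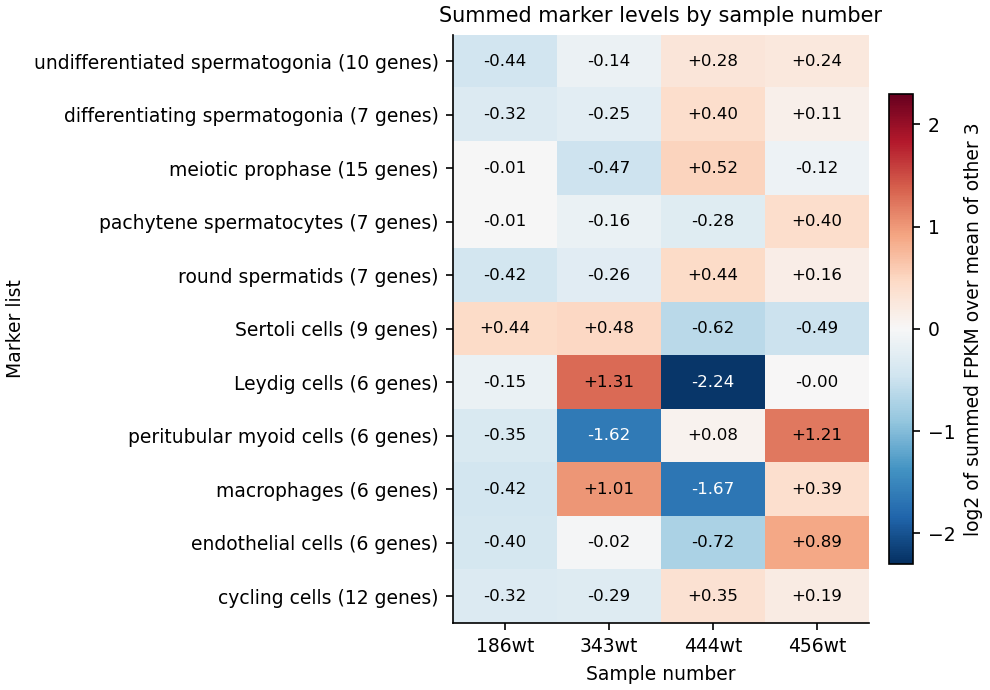
Log2 of the summed FPKM of each marker list in a sample number over the mean of the other 3, for 11 lists fixed by gene symbol (number of genes found in parentheses). The lowest values are those of the Leydig and macrophage lists in 444wt (-2.24 and -1.67) and of the peritubular myoid list in 343wt (-1.62), and the highest is that of the Leydig list in 343wt (+1.31).

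Ratios of paralogs within a library do not change with the scaling of that library. Ezh2 stood to Ezh1 as 0.935, 0.997, 1.03 and 0.925 in 186wt, 343wt, 444wt and 456wt. Their log2 ratio averaged -0.04 ± 0.07 (SD, n = 4), and 4 of 12 libraries had more Ezh2 than Ezh1. An exact permutation test over all 15400 assignments of the 12 libraries to 4 sets of 3 gave p = 0.0384, or 0.0512 after adjustment over the 4 ratios, so a difference between numbers was not shown. The call depended on single libraries, since the adjusted p was 0.0239 without library 2 of 186wt, 0.0261 without library 1 of 343wt and 0.0475 without library 1 of 444wt. The summed FPKM of the pair was 51.8, 47.4, 57.6 and 53.2.

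Rnf2 exceeded Ring1 in 12 of 12 libraries. The ratio was 1.44 in 186wt, 1.83 in 343wt, 1.86 in 444wt and 1.5 in 456wt, and the exact permutation test gave p = 0.0074 (adjusted p = 0.0148). All 6 libraries of 343wt and 444wt lay above all 6 of 186wt and 456wt. The summed FPKM of the pair was 59.0, 55.8, 47.8 and 51.2 in 186wt, 343wt, 444wt and 456wt. With any 1 of the 4 numbers left out, the adjusted p was 0.05 or above.

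Phc1 was below Phc2 in 12 of 12 libraries. The Phc1 to Phc2 ratio was 0.841 in 186wt, 0.689 in 343wt, 0.946 in 444wt and 0.802 in 456wt, the widest movement of the 4 ratios at 0.46 on the log2 scale. The exact permutation test gave p = 0.000974 (adjusted p = 0.0039). The libraries of 343wt were all below, and those of 444wt all above, the libraries of the other numbers. Without 343wt the adjusted p was 0.0905 and without 444wt it was 0.05.

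Bmi1 exceeded Pcgf2, which encodes the alternative ring-finger partner Mel18, in 12 of 12 libraries. The ratio was 1.69, 1.74, 1.54 and 1.62 in 186wt, 343wt, 444wt and 456wt, and no difference between numbers was shown (exact permutation p = 0.277, adjusted p = 0.277). Pcgf2 itself averaged 29.5 ± 3.70 FPKM (SD, n = 4). The smallest p that the permutations of 12 libraries allow is 6.49e-05.

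**Figure D5:**
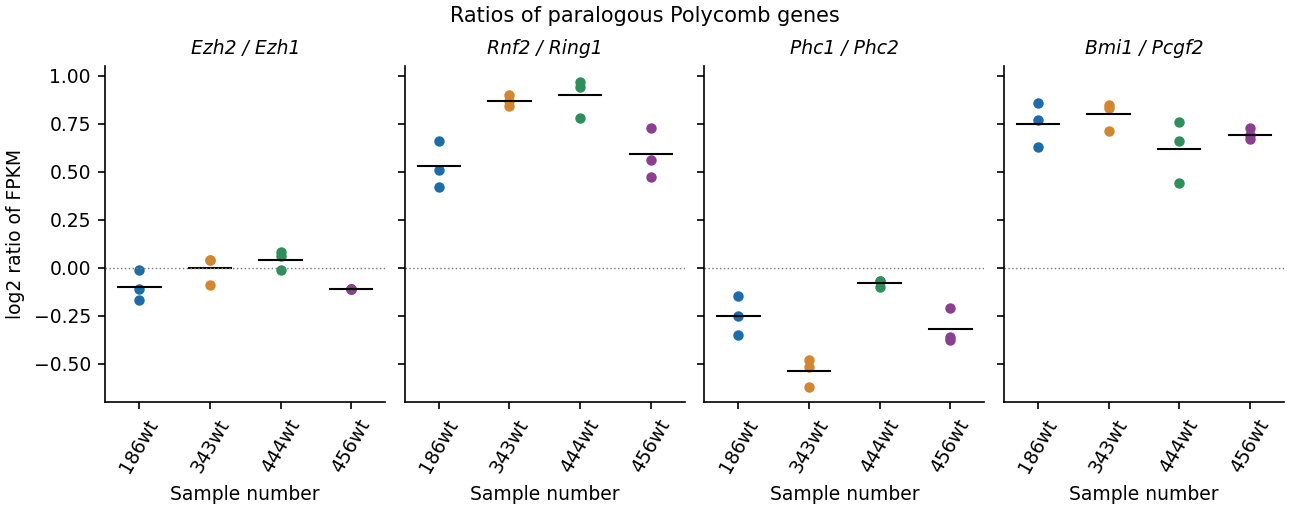
Log2 ratio of FPKM for 4 pairs of paralogs in each library (points) and its mean in each sample number (lines), with 0 marking equal levels. Rnf2 over Ring1 and Bmi1 over Pcgf2 lie above 0 in all 12 libraries and Phc1 over Phc2 below 0 in all 12.

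The other genes of the Polycomb system were taken from lists of PRC2, PRC1 and mark-removing genes. Of 10 rows of other PRC2 core and accessory genes, 9 passed the F-test (background 58.2% of all genes, 83.3% at 10 to 100 FPKM), and the most abundant were the histone-binding subunits Rbbp7 (210 ± 27.9 FPKM) and Rbbp4 (204 ± 8.77 FPKM), both well above any member. Both also belong to other chromatin complexes. In 444wt 5 of the 10 rows were higher and 1 lower, against backgrounds of 26.5% and 17.8% (36.7% and 23.8% with a filter of 1 FPKM). After median-ratio rescaling 4 were higher and 1 lower, against 18.7% and 22.8%. In 186wt 1 was higher and 5 lower (backgrounds 14.8% and 21.9%). In 343wt 2 were higher and 5 lower (14.5% and 25.6%), and in 456wt 3 and 2 (22.9% and 13.6%). A germ-line Polycomb gene, AU022751, has 2 rows in the table under different identifiers (ENSMUSG00000092132 and ENSMUSG00000073294). The first had the widest range of the group, at 2.18, but spanned 0 to 5.03 FPKM over libraries and did not pass (adjusted p = 0.376). Reads may have been divided between the 2 rows.

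Of 30 other PRC1 genes 21 passed the F-test (background 58.2%, and 83.3% at 10 to 100 FPKM), and 16 were in the upper quartile of levels. In 444wt 17 were higher and 4 lower (backgrounds 26.5% and 17.8%, or 36.7% and 23.8% with a filter of 1 FPKM). After rescaling these became 13 and 6 (18.7% and 22.8%). In 186wt 3 were higher and 17 lower (backgrounds 14.8% and 21.9%, or 21.3% and 31.1% with a filter of 1 FPKM). After rescaling these became 3 and 13 (18.1% and 17.2%). In 343wt 2 were higher and 13 lower (backgrounds 14.5% and 25.6%, or 20.5% and 35.6% with a filter of 1 FPKM). After rescaling they were 5 and 10 (20.7% and 16.7%). In 456wt 12 were higher and 3 lower (backgrounds 22.9% and 13.6%, or 30.7% and 19.5% with a filter of 1 FPKM). After rescaling they were 8 and 5 (17.4% and 18.2%). The highest was Scml2, a germ-line subunit of PRC1, with 85.7, 76.5, 124 and 97.3 FPKM in 186wt, 343wt, 444wt and 456wt. It was highest in 444wt and lowest in 343wt, the same order of extremes as Jarid2 and Phc1, with a log2 range of 0.70 (limma adjusted p = 3.48e-08).

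Of 9 genes whose products remove Polycomb marks, such as the demethylases of lysine 27 and the deubiquitinases of H2A, 8 passed the F-test. The background was 58.2%, and 83.3% at 10 to 100 FPKM. In 444wt 6 were higher and 0 lower (backgrounds 26.5% and 17.8%, or 36.7% and 23.8% with a filter of 1 FPKM). After rescaling these became 5 and 1 (18.7% and 22.8%). In 456wt 1 was higher and 5 lower (backgrounds 22.9% and 13.6%, or 30.7% and 19.5% with a filter of 1 FPKM), or 1 and 7 after rescaling (17.4% and 18.2%). In 186wt 3 were higher and 2 lower (14.8% and 21.9%), and in 343wt 0 and 3 (14.5% and 25.6%). Hox genes, the classical targets of Polycomb silencing, were low against the members. Of 40 rows 30 passed the filter of 0.1 FPKM and 8 reached 1 FPKM, where 20795 and 14348 of all 37620 genes did. The Hox share was thus larger at 0.1 FPKM and smaller at 1 FPKM. No Hox row reached the upper quartile, and the median of the 40 was 0.323 FPKM, against 20.3 FPKM for the lowest member. The Hox genes with a mean under 0.1 FPKM were Hoxa5, Hoxa6, Hoxa11, Hoxa13, Hoxc11, Hoxc12, Hoxd1, Hoxd12 and Hoxd13, and Hoxc12 was listed at 0 in all 12 libraries. Hoxa3 has 2 rows. The row ENSMUSG00000059723 averaged 0.00167 FPKM, and ENSMUSG00000079560 had 0.45, 0.39, 0.817 and 1.01 FPKM in 186wt, 343wt, 444wt and 456wt (limma adjusted p = 0.025). Reads may have been divided between them. Of the 30 Hox rows tested 15 passed the F-test (background 58.2%). The contrasts gave 11 higher in 456wt (background 22.9%) and 11 lower in 343wt (background 25.6%), or 10 and 8 after rescaling (17.4% and 16.7%). Hoxc8 had the widest range, with 0.403, 0.193, 0.3 and 1.28 FPKM in 186wt, 343wt, 444wt and 456wt (limma adjusted p = 0.00111). Hoxa2 was next among Hox genes, with its lowest mean, 0.0267 FPKM, for 343wt and its highest, 0.337, for 444wt (limma adjusted p = 0.0126).

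For the 3 members with the widest range, the genes of the most similar profile were sought among the 14348 genes that averaged 1 FPKM or more. Likeness was the root mean square difference of log2(FPKM + 0.1), centred on each gene, over the 12 libraries. Nearest to Jarid2 were Pan2 (0.05), Alms1 (0.055) and 2410089E03Rik (0.056), and Pan2 averaged 20.7 FPKM for 343wt and 30.2 for 444wt. Nearest to Phc1 were Adarb1 (0.035), Haus6 (0.039) and Tmem57 (0.043), all lowest in 343wt and highest in 444wt. Nearest to Ring1 were Txndc12 (0.073), Tgfb1 (0.087) and Psap (0.09), all highest in 186wt and lowest in 444wt. Psap, a lysosomal protein gene, gave 512, 431, 365 and 441 FPKM in 186wt, 343wt, 444wt and 456wt. These are descriptions of profiles over 4 preparations.

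The loci of the members lie apart on the genome of the files (NCBI build 37, GENCODE M1). Ezh2 is at chr6:47480273-47545340 and Phc1 at chr6:122267749-122290579, both on the minus strand, and Ezh1 (chr11:101052429-101087777, minus) and Suz12 (chr11:79806608-79847625, plus) share a chromosome. Jarid2 is at chr13:44824843-45017012 on the plus strand, Ring1 at chr17:34157737-34161625 on the minus strand and Rnf2 at chr1:153316536-153347953 on the minus strand. Bmi1 is at chr2:18598645-18608256 and Phc2 at chr4:128331982-128430125, both on the plus strand, and Eed at chr7:97103166-97129493 on the minus strand. All are annotated as protein coding. Besides Suz12, only Ezh2 shares exon bases with a gene on the other strand, 174 bases with Gm17629. Eed, Jarid2, Rnf2, Ring1, Phc1 and Phc2 share no 50-base word of their transcripts with another gene.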

How the data were processed

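RNA of germ cells enriched from testes at 12 days post-partum was sequenced in 12 libraries, 3 for each of 4 sample numbers. Per the labels and the study's methods, the authors aligned 100-base paired reads to the transcriptome of NCBI build 37 with Bowtie 0.12.9, removed reads with 2 or more mismatches, and deposited FPKM per gene from RSEM 1.2.8 (fragment length 280 ± 50). The counts themselves were not used here. From FPKM, log2(FPKM + 0.1) was fitted over 20795 genes with limma 3.58.1 (R 4.3.3, eBayes with trend, Benjamini-Hochberg over all genes, threshold 0.05). The FPKM table was tested with the 4 sample numbers as groups. Fold changes on this scale understate low genes. The fit was tested on simulated data. Depth came from FPKM steps of genes with 1 transcript of 300 to 500 bases, and depth limits the counting error only. The fit behind it gave a length offset of 63 bases, against the stated fragment length of 280, a gap that was not examined. The depths are thus estimates. Paralog ratios were tested by exact permutation. Rescaled, filtered and leave-one-out fits were the alternatives. The members, the lists and the rule for named genes (all members, the 3 highest, the 3 widest and those under 0.1 FPKM of the other Polycomb genes, Pcgf2, and the 3 nearest profiles) were chosen with earlier results of these data known. Markers Meiob and Rhox5 did not match by symbol. The ChIP-seq and Affinity-seq samples were not analysed here.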

Additional observations from a re-analysis of the deposited data

Results flagged for a closer look

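Among 43 values compared over the 4 sample numbers with Dixon's criterion for 4 samples, 1 was set apart, where about 2.1 would be by chance. One of the 2 rows of Hoxa3 (ENSMUSG00000059723) was at 0.00667 FPKM in 456wt and listed at 0 in the other 3 numbers, which is below the filter of 0.1 FPKM. The other Hoxa3 row (ENSMUSG00000079560) averaged 0.667 FPKM and was not examined by this criterion. None of the 10 members, 4 paralog ratios, 3 paralog sums or 11 marker sums was set apart.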

How the results depend on the processing

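Of 449 recomputed values, 24 changed side of the threshold (20 lost a call, 4 gained one), and 11 levels moved with the change of unit given below. The other 414 include levels and counts that have no threshold of their own. The members called by the F-test numbered 10 (background 58.2% of genes tested). They numbered 9 without a filter (28.6%) and after rescaling to an equal sum with (52.7%) or without (51.5%) mitochondrial genes. The count was also 9 after rescaling by the median ratio (56.1%) and without the trend (57.1%). With 1 library left out it was 9 to 10 (background 55.0% to 56.7%). With 1 number left out it was 7 to 10 (47.7% to 54.3%), the 7 being without 444wt (47.7%). The replicate block, with the library number as a covariate, gave 10 members (background 56.6%) and 22 calls in single contrasts, against 20 without it. Contrast backgrounds ran from 13.3% (456wt lower) to 26.0% (444wt higher) with the block, against 13.6% and 26.5% without it. Libraries with the same number in different sample numbers did not deviate together (r from -0.041 to 0.03), so the number is no pairing. The block moved the Ezh2 to Ezh1 ratio to an adjusted p of 0.0324 at a log2 range of 0.16, its replicate-out values ran from 0.14 to 0.18, and its adjusted p ran from 0.0239 to 0.134 over all alternatives. With 1 number left out, the Rnf2 to Ring1 range ran from 0.31 to 0.37 (0.34 without 444wt). The Phc1 to Phc2 range was 0.24 without 343wt and 0.29 without 444wt. Some calls were lost in these fits, where fewer assignments remain, and the reason for the loss was not tested. The median of the member levels was 37.3 FPKM and 77.5 after rescaling to an equal sum (TPM), which is a change of unit. The order of the members changed only without 343wt, where Phc1 passed Suz12. Depth limits counts of low Hox genes. It also sets the members' counting error, 2.12% to 3.64% for 1 kb of transcript in the number with the fewest fragments. The part of that error in the members' calls was not tested.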
